A study of Mus musculus with 6 samples.

Results

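The transcripts described here encode the Myc, Max and Mxd network of transcription factors: Myc, Mycn, Max, Mxd1, Mxd3, Mxd4, Mxi1, Mnt, Mga and Mlx. They were taken by gene symbol from a count table of 23420 genes, in which all 10 were present, and all 10 had enough reads to be tested. Counts came from mRNA sequencing of 6 libraries of cultured mouse epidermal keratinocytes, the epithelial cells of the outer skin. Both groups carried floxed Gata6 (Gata6 fl/fl), were at passage 8 to 10 in low calcium E media, and had been given 1 µM 4-hydroxytamoxifen for 6 hours. The 3 libraries labelled WT lacked the Cre transgene (K14CreERT2-;Gata6 fl/fl), and the 3 labelled iKO had it (K14CreERT2+;Gata6 fl/fl), a tamoxifen-dependent recombinase under the keratin 14 promoter of basal keratinocytes. The WT libraries are numbered 2, 3 and 4 and the iKO libraries 3, 4 and 33. Whether the libraries of a group were separate cultures or animals is not stated, so a p-value here reflects only how far these libraries vary, and that variation may be technical. In such bulk samples fewer cells of a type and less RNA per cell cannot be told apart.

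Max is the shared partner of the network. Myc and Mycn pair with Max and bind the E-box CACGTG to raise transcription of genes for ribosome production, metabolism and cell division. Mxd1, Mxi1, Mxd3, Mxd4 and Mnt pair with Max at the same sites and recruit Sin3 and histone deacetylases to lower transcription, Mga joins Max within a Polycomb complex, and Mlx pairs with some Mxd proteins and with the glucose-sensing Mondo factors. In skin, Myc is active in proliferating basal cells, and Mxd1 is known for its appearance as keratinocytes differentiate.

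Several facts of the whole series bear on these values. Gene counts ranged from 21943467 to 83337263 per library, with WT 3 and iKO 33 the deepest. Gata6 itself went against the labels. It measured 0.519 to 5.37 CPM (read counts per gene scaled to library size, here with TMM factors) in the libraries labelled WT. In those labelled iKO it measured 14.2 to 21.02 CPM (log2 fold change 2.60, SE 0.72; adjusted p = 0.18 in edgeR and 0.0013 in DESeq2). Its counts may include exons outside the deleted part, and the reason for the higher iKO values was not tested. Esr1 ran the way the labels say: CreERT2 holds an estrogen receptor domain, and Esr1 measured 29.6 to 99.3 CPM in iKO and at most 0.284 CPM in WT (edgeR adjusted p = 0.00678). Whether the Esr1 reads came from the transgene was not tested. The sex of the cells was aligned with the genotype label: Xist measured 605 to 889 CPM in WT and at most 2.62 CPM in iKO, and Kdm5d 0 reads in WT and 15.3 to 22.9 CPM in iKO. Sex and genotype therefore cannot be told apart in any difference below. Reads with no unique alignment made up 29.5% to 30.5% of all counts in WT and 21.8% to 26.5% in iKO, and their part in the results was not tested. The 8 keratinocyte markers summed to 33510 to 46900 CPM in WT and 34990 to 52650 CPM in iKO, a sum made up mostly of Krt5 and Krt14. Within it Trp63, the transcription factor of basal keratinocytes, went the other way, at 307 to 331 CPM in WT and 191 to 205 CPM in iKO (log2 fold change -0.68, SE 0.10; adjusted p = 0.0529 in edgeR and 3.83e-07 in DESeq2). Krt15 stood at -1.28 (SE 0.49) with overlapping groups. Markers of other cells were low in both groups. The 8 fibroblast genes summed to 18.3 to 46.9 CPM in WT and 24.9 to 48.4 CPM in iKO, with Dcn and Lum at 0 reads. Fbln1 made up most of that sum (16.1 to 44.3 CPM in WT, 23.9 to 45.1 CPM in iKO). The 6 melanocyte genes summed to 6.09 to 11.9 and 5.69 to 8.45 CPM with Dct at 0. The 4 endothelial genes summed to 9.31 to 19.1 and 7.29 to 8.94 CPM, mostly Kdr. The 5 immune genes summed to at most 0.199 CPM with Cd207 at 0.

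The E-box of the network also occurs in promoters of its own members, and these stretches are shown because CACGTG is the sequence that Max dimers are known to bind. Promoter windows of 250 bases before to 50 bases after the start, taken from RefSeq on GRCm38.p6, were found for 9 of the 10 members (not Myc), and CACGTG, which reads the same on both strands, was present in 4 of them. The sequences below run 5′ to 3′ on the strand of the gene, with the E-box in capitals. For Max (chr12:76962246-76962275, minus strand) the E-box begins 3 bases before the RefSeq start and crosses it, and that start lies upstream of the GENCODE gene start used for the positions below. For Mnt (chr11:74830781-74830826, plus strand), Mlx (chr11:101087230-101087275, plus strand) and Mxd4 (chr5:34187904-34187949, minus strand) it begins 123, 40 and 219 bases before the RefSeq start.
Max: ctaccccggcgcggtgagcccggtCACGTG
Mnt: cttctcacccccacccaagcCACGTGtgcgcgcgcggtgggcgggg
Mlx: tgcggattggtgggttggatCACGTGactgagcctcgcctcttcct
Mxd4: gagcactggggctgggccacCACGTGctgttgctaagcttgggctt

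The windows of Mycn, Mxd1, Mxd3, Mxi1 and Mga held no CACGTG, which says only that these letters are not in those bases. Of all 27025 genes with such a window, 8.09% held the motif, and of the 9366 of them that were tested here, 11.7% did. Both of these shares leave out chromosome 18.

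Myc, the activator at the centre of the network, had its lowest values in the iKO libraries, but the difference missed the main test. Myc (chromosome 15, 61985391 to 61990374, plus strand, mm10) measured 208 CPM in WT 2, 171 CPM in WT 3 and 171 CPM in WT 4, from 4507 to 13533 reads. In iKO 3, iKO 4 and iKO 33 it measured 123, 114 and 133 CPM, from 3840 to 11316 reads. All 3 libraries labelled iKO lay below all 3 labelled WT, and WT 2 stood above the other WT libraries. The means were 183 ± 21.1 and 123 ± 9.50 CPM (SD, n = 3), a ratio of 0.673. The log2 fold change was -0.57 (SE 0.12), and it missed the threshold of 0.05 in edgeR's quasi-likelihood test after adjustment over all genes (adjusted p = 0.121). DESeq2 called it (adjusted p = 0.00743), and over all 17 alternatives in edgeR, DESeq2 and limma its adjusted p ranged from 0.00743 to 0.330. The log2 fold change was -0.47 without WT 2 and -0.63 without iKO 33.

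Mycn, the paralogue of Myc known from neural and embryonic tissues, had few reads. It measured 1.43, 0.975 and 1.08 CPM in WT 2, WT 3 and WT 4, from 31 to 77 reads. It measured 2.43, 1.24 and 2.82 CPM in iKO 3, iKO 4 and iKO 33, from 56 to 240 reads. The groups overlapped, because iKO 4 lay below WT 2. Neither edgeR (adjusted p = 0.333) nor DESeq2 (adjusted p = 0.236) called the log2 fold change of 0.91 (SE 0.39). Mycn (chromosome 12, 12936093 to 12941914, minus strand) stood at 0.67 without iKO 33 and 1.19 without iKO 4.

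**Figure D1:**
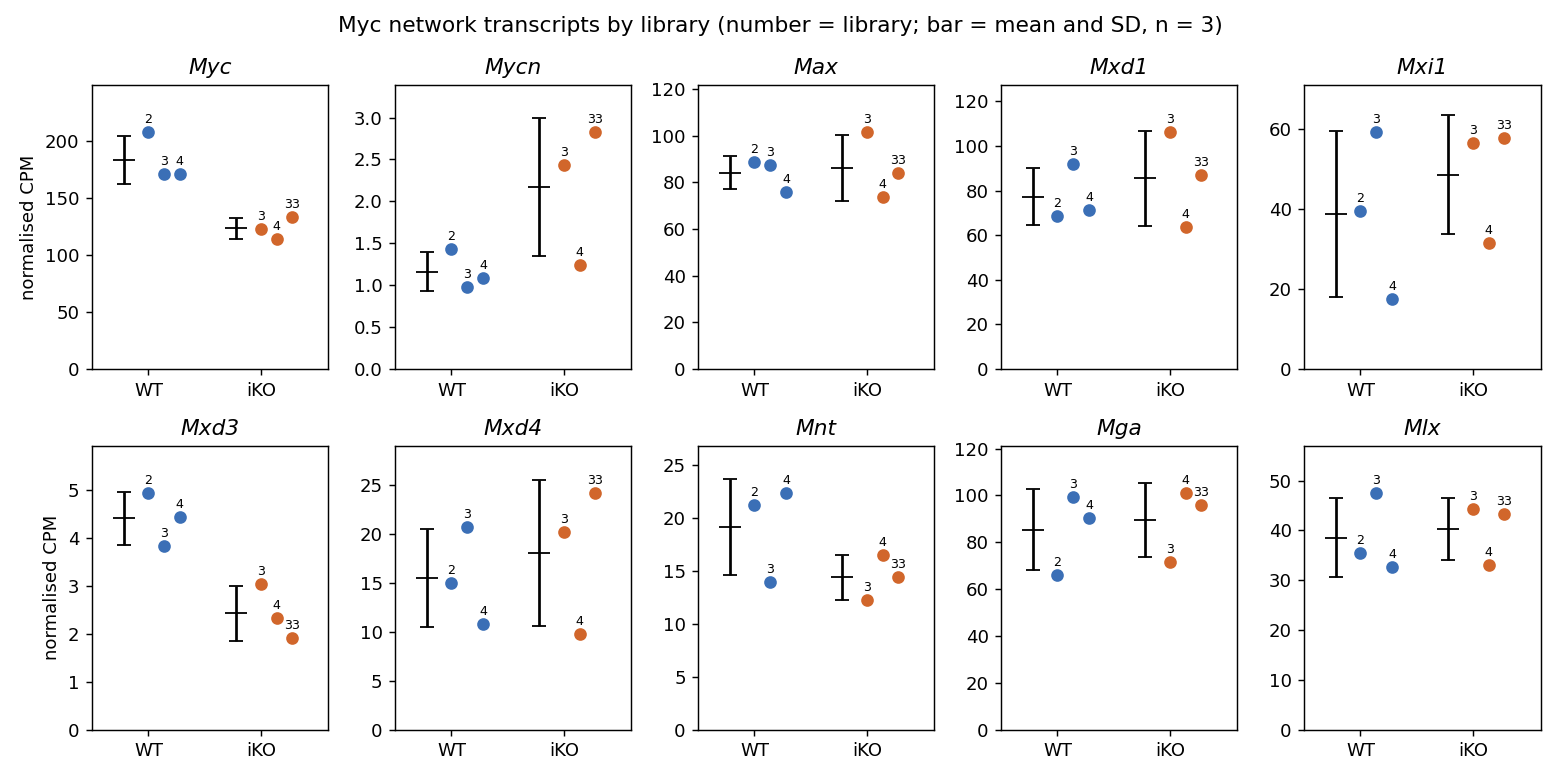
Normalised CPM (y axis, from 0, a scale for each gene) of the 10 network transcripts in the 3 libraries labelled WT (blue) and the 3 labelled iKO (orange), with the number of each library beside its point and a black bar for the mean and SD. Myc and Mxd3 have every iKO point below every WT point, and the other 8 overlap, with the libraries numbered 4 lowest of their group for Max, Mxi1, Mxd4 and Mlx.

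Max, the partner of both Myc and the Mxd proteins, differed between the groups by less than its spread within them. Max (chromosome 12, 76937269 to 76962201, minus strand) measured 84.1 ± 7.09 CPM in WT and 86.4 ± 14.1 CPM in iKO (SD, n = 3), and the libraries ranged from 73.6 CPM in iKO 4 to 102 CPM in iKO 3. Its log2 fold change was 0.04 (SE 0.15; edgeR adjusted p = 0.935). It changed sign when single libraries were left out, between -0.09 without iKO 3 and 0.14 without iKO 4.

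Among the repressor partners of Max, Mxd3 was the one whose groups were apart. Mxd3, a family member known for its expression in S phase, lies at chromosome 13, 55325168 to 55329823, on the minus strand. It measured 4.93, 3.84 and 4.44 CPM in WT 2, WT 3 and WT 4, from 107 to 303 reads. It measured 3.04, 2.33 and 1.91 CPM in iKO 3, iKO 4 and iKO 33, from 95 to 162 reads. All libraries labelled iKO were below all labelled WT. The log2 fold change was -0.86 (SE 0.27), a ratio of 0.550. DESeq2 called it (adjusted p = 0.0362) and edgeR did not (adjusted p = 0.215). Over the 17 alternatives in edgeR, DESeq2 and limma the log2 fold change lay between -1.05 and -0.63, with adjusted p from 0.0362 to 0.453. Mxd3 shares 105 exonic bases (4.43%) with Prelid1 on the opposite strand.

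Mnt, a repressor expressed in many cell types that competes with Myc for Max, had a log2 fold change of -0.41 (SE 0.22; edgeR adjusted p = 0.427). Its values were 21.2, 14.0 and 22.3 CPM in WT 2, WT 3 and WT 4, and 12.2, 16.4 and 14.4 CPM in iKO 3, iKO 4 and iKO 33. WT 3 lay within the range of iKO, and the other WT libraries lay above it. Mnt (chromosome 11, 74830920 to 74845725, plus strand) stood at -0.60 in the 4 shallower libraries and at -0.29 without WT 4.

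Mxd1, Mxi1 and Mxd4 differed more between libraries of the same group than between groups. Mxi1, a tumour suppressor candidate of the Mxd family, measured 39.6, 59.3 and 17.6 CPM in WT 2, WT 3 and WT 4, and 56.6, 31.6 and 57.9 CPM in iKO 3, iKO 4 and iKO 33. The highest of the 6 libraries was 3.36 times the lowest, the widest range among the members. Mxd4 measured 15.0, 20.7 and 10.7 CPM in WT 2, WT 3 and WT 4, and 20.2, 9.75 and 24.2 CPM in iKO 3, iKO 4 and iKO 33. For both genes the libraries numbered 4 were lowest in their group. Mxd1 ranged from 68.7 to 92.1 CPM in WT and from 63.6 to 106 CPM in iKO. The log2 fold changes were 0.32 (SE 0.44) for Mxi1, 0.22 (SE 0.37) for Mxd4 and 0.15 (SE 0.21) for Mxd1, and none passed in edgeR (adjusted p = 0.781, 0.833 and 0.800). Mxi1 stood at 0.77 without WT 3 and -0.04 without WT 4, Mxd4 at 0.52 without iKO 4 and -0.05 without iKO 33, and Mxd1 at 0.32 without iKO 4 and -0.04 without iKO 3. Mxi1 lies at chromosome 19, 53310518 to 53375810 (plus strand), Mxd4 at chromosome 5, 34173883 to 34187720 (minus strand), and Mxd1 at chromosome 6, 86647042 to 86669161 (minus strand). Of their exonic bases, Mxd4 shares 514 (6.06%) with Gm42846 and Mxi1 194 (2.84%) with Gm10197, both on the opposite strand.

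The differences of Mga and Mlx were also smaller than the spread within groups. Mga, a very large protein that combines a T-box domain with the Max-binding domain, measured 66.1 to 99.4 CPM in WT and 71.7 to 101 CPM in iKO (log2 fold change 0.07, SE 0.20; edgeR adjusted p = 0.907). Mlx measured 32.6 to 47.5 CPM in WT and 33.2 to 44.3 CPM in iKO (0.06, SE 0.19; edgeR adjusted p = 0.915). Both differences changed sign when single libraries were left out. Mga lies at chromosome 2, 119897228 to 119969581 (plus strand), and Mlx at chromosome 11, 101087277 to 101092207 (plus strand). Of the exonic bases of Mlx, 19.3% overlap Psmc3ip on the opposite strand, and the library kit does not keep strand, so reads in this and the other shared stretches cannot be told apart.

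**Figure D2:**
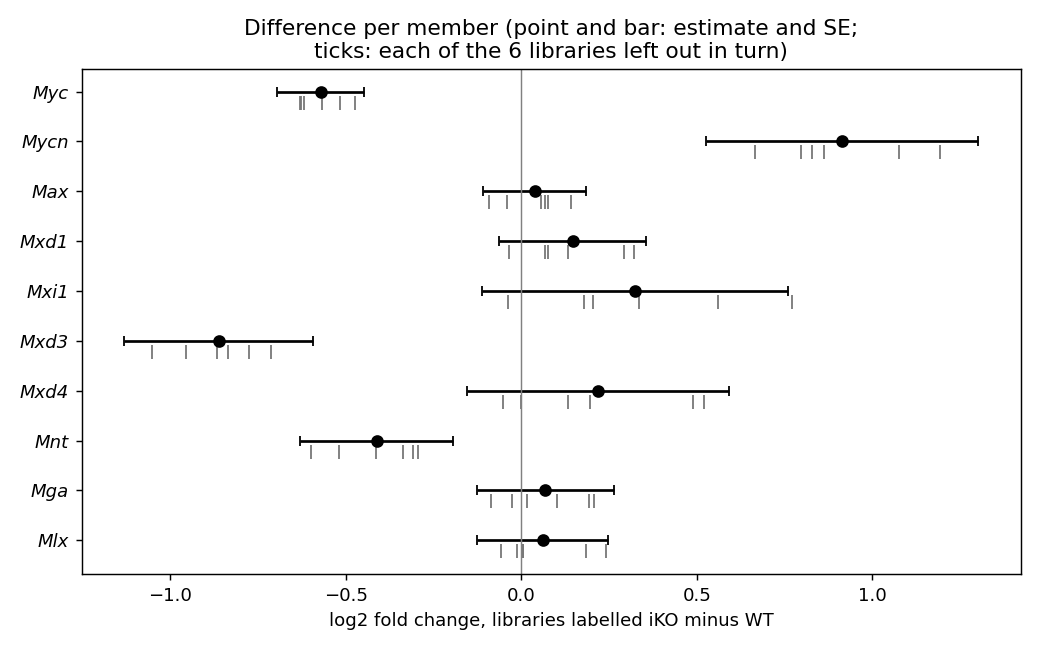
Log2 fold change of each member, iKO minus WT (x axis), with its SE as a bar and, as grey ticks, the value when each of the 6 libraries was left out. The ticks of Myc, Mxd3 and Mnt stay below 0 and those of Mycn above 0, while those of the other 6 members fall on both sides of 0.

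Across the network, 0 of 10 members passed an adjusted p of 0.05 in edgeR, where 0.339% of all 12672 tested genes passed. At an unadjusted p under 0.05 the count was 2 of 10 (Myc and Mxd3) beside 15.0% of all tested genes. DESeq2 called the same 2 members beside 5.89% of the genes, and the groups did not overlap for these 2 beside 21.9% of all tested genes. In a set of 10 these counts are near the background, and only the DESeq2 share lies well above it, through the same 2 genes. The median log2 fold change was 0.06 over the members and 0.01 over all tested genes. In the authors' deposited table, whose sign matched iKO minus WT for all 43 genes called here, Myc stood at -0.54 (SE 0.14, adjusted p = 0.00643) and Mxd3 at -0.72 (SE 0.23, adjusted p = 0.0307). The other 8 members had adjusted p-values of 0.217 to 0.963 in the authors' deposited table.

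Levels of different members were compared per kilobase of annotated exon, which joins the exons of all isoforms and so understates genes with long alternative ends. Myc was the most abundant member in every library, at 67.5 ± 7.78 CPM per kb in WT and 45.4 ± 3.50 in iKO (SD, n = 3). Max followed with 23.4 ± 1.97 in WT and 24.0 ± 3.92 in iKO, and Mlx with 19.3 ± 3.96 and 20.1 ± 3.09, and their ranges overlapped. Mxd1 was the leading repressor at 10.9 ± 1.82 and 12.1 ± 3.01 CPM per kb, below Mlx in every library.

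The remaining members were lower and closer together. Mxi1 (5.69 ± 3.05 in WT), Mga (5.56 ± 1.13) and Mnt (4.14 ± 0.978 CPM per kb) overlapped each other. In iKO they stood at 7.14 ± 2.18, 5.83 ± 1.02 and 3.10 ± 0.457, with Mnt below both others in every iKO library. Mxd3 and Mxd4 had nearly equal means in WT, at 1.86 ± 0.232 and 1.83 ± 0.590 CPM per kb. In iKO the order of their means was the other way, at 1.02 ± 0.241 for Mxd3 and 2.13 ± 0.879 for Mxd4, with overlapping ranges. Mycn was between 0.296 and 0.857 CPM per kb, the lowest member in 5 libraries. In iKO 33 it stood above Mxd3, at 0.857 against 0.805.

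**Figure D3:**
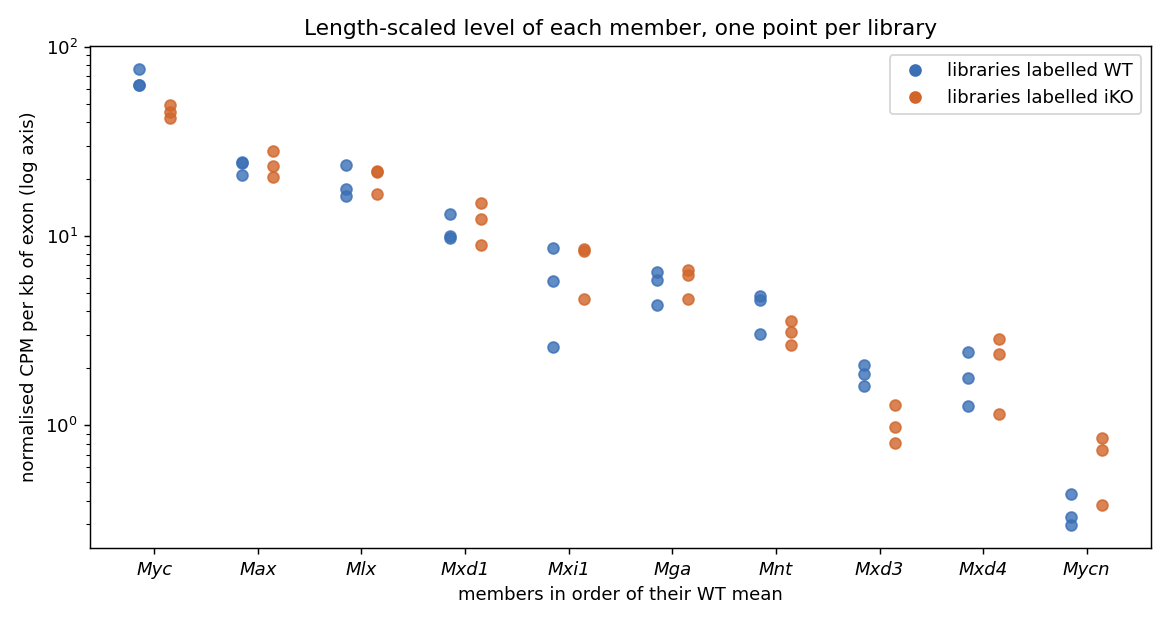
CPM per kb of exon on a log axis for each member, ordered by its WT mean, with 1 point per library (blue WT, orange iKO). Myc lies above all other members in all 6 libraries, between 42.02 and 76.5 CPM per kb, and Mycn is the lowest in 5 of them, with Mxd3 lower in iKO 33.

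These levels give the ratio of the activator to its competitors in each library, as a description of the transcripts and not of the proteins. The summed level of the 5 repressors Mxd1, Mxi1, Mxd3, Mxd4 and Mnt was 24.4 ± 4.12 CPM per kb in WT and 25.5 ± 5.45 in iKO (SD, n = 3). Myc was 3.20, 2.19 and 3.06 times that sum in WT 2, WT 3 and WT 4, and 1.53, 2.18 and 1.78 times in iKO 3, iKO 4 and iKO 33. WT 3 and iKO 4 were nearly level, so the groups only just separated. The ratio of Myc to Max was 2.89 ± 0.265 in WT and 1.92 ± 0.276 in iKO (SD, n = 3), with every iKO library below every WT library. Max was 0.239 ± 0.00679 of the summed level of its partners Myc, Mycn, Mga and the 5 repressors in WT, and 0.310 ± 0.0376 in iKO. All of these ratios carry the lower Myc values of the iKO libraries, and no test was made of them.

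**Figure D4:**
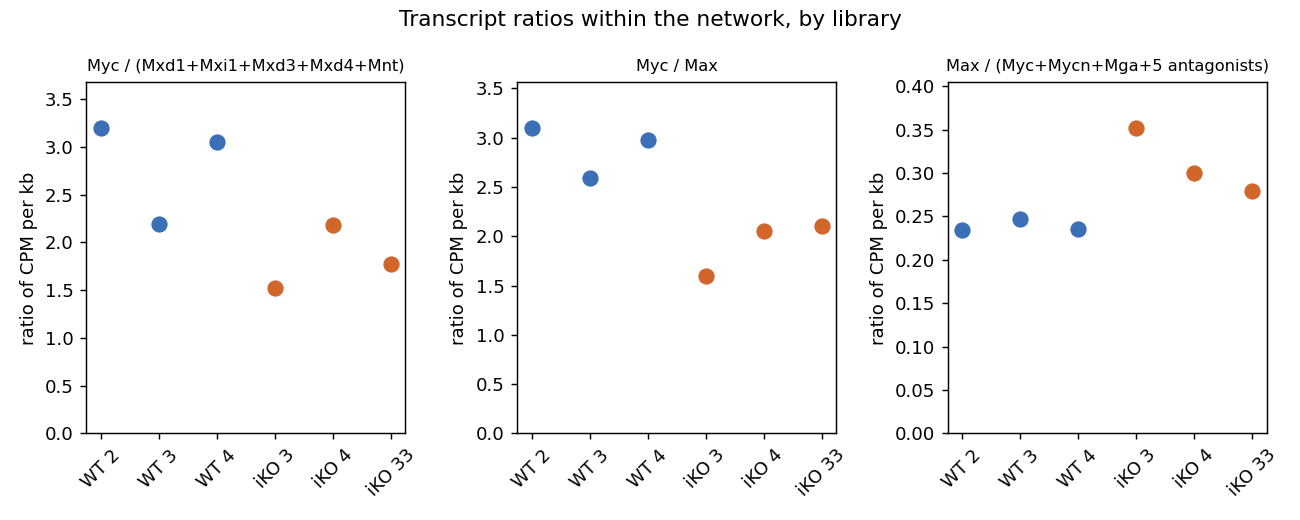
Ratios of CPM per kb in each library (y axes from 0; blue WT, orange iKO): Myc to the summed 5 repressors, Myc to Max, and Max to its summed partners. Myc to repressors runs from 2.19 to 3.20 in WT and from 1.53 to 2.18 in iKO, and Max to partners from 0.235 to 0.247 in WT and from 0.279 to 0.352 in iKO.

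Members also varied together across the 6 libraries, which share depth, culture and group, so the following Pearson correlations of log2 CPM are descriptions. Mxd4, Mlx, Mxi1 and Mxd1 moved together, with r between 0.714 (Mxd1 with Mxi1) and 0.922 (Mxd4 with Mlx) over 6 libraries. Mnt moved against these 4, with r from -0.826 (Mlx) to -0.676 (Mxd4). Myc and Mxd3 had an r of 0.845, and Myc and Max of 0.0645. Among 8713 tested genes with a mean log2 CPM of at least 3, those whose level was most like Myc over the 6 libraries were Tnrc6c (r = 0.993, rho = 0.943), Helq (r = 0.988, rho = 1) and Ext1 (r = 0.983, rho = 1). Those most opposite were Oaz2 (r = -0.992, rho = -1), Polr2g (r = -0.988, rho = -0.886) and Cct8 (r = -0.975, rho = -0.943). Such genes were picked as the ends of a ranking of 8713 genes over 6 libraries, which by itself yields extreme r values. Oaz2 encodes an antizyme, which inhibits the ornithine decarboxylase encoded by the Myc target gene Odc1.

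Genes known to be activated by Myc were mostly lower in the libraries labelled iKO. Of 54 such genes, all tested, 47 had a negative log2 fold change (87.0%, beside 48.8% of all tested genes) and 7 a positive one, with a median of -0.22. None passed in edgeR over all genes. At an unadjusted p under 0.05, 18 were lower (33.3%, beside 7.70% of all tested genes) and 1 was higher, DESeq2 called 11 lower (20.4%, beside 2.80%), and the groups stood apart with iKO lower for 17 (31.5%, beside 11.3%). The list was chosen with earlier results of these data known, so these shares are descriptions and not an independent test. Over the 17 alternatives, which refit these libraries or some of them, 42 to 47 of the 54 were lower, with medians of -0.28 to -0.17. The mean log2 CPM of the 54 genes was 7.69 to 7.79 in the WT libraries and 7.42 to 7.60 in the iKO libraries.

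The 4 of these genes with the smallest p were Slc7a5, E2f1, Wdr12 and Polr1b. Slc7a5, a transporter of large neutral amino acids, measured 171 to 206 CPM in WT and 107 to 122 CPM in iKO (-0.77, SE 0.12; edgeR adjusted p = 0.0609). E2f1, a transcription factor of S phase entry, measured 25.7 to 34.1 CPM in WT and 15.7 to 16.2 CPM in iKO (-0.90, SE 0.14; edgeR adjusted p = 0.0622). Wdr12, a factor of large ribosomal subunit assembly, measured 110 to 128 and 74.8 to 79.3 CPM (-0.59, SE 0.11; edgeR adjusted p = 0.0837), and Polr1b, a core subunit of RNA polymerase I, 115 to 130 and 78.8 to 91.6 CPM (-0.53, SE 0.11; edgeR adjusted p = 0.114). None of the 4 passed in edgeR, all 4 had groups that did not overlap, and DESeq2 called all 4 (adjusted p = 2.83e-05, 9.91e-06, 0.000972 and 0.00514). As the 4 were picked by the smallest edgeR p in these same libraries, separate groups and DESeq2 calls follow largely from that choice. In the whole list of 54 the groups were apart with iKO lower for 17, and DESeq2 called 11 lower.

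Split by role, a split made after the values were seen, most genes of every role were lower. The median was smallest in size among translation and chaperone genes. Of 21 nucleolar and ribosomal RNA genes 20 were lower (median -0.16), Npm1 being the exception at 0.17 (SE 0.11). Among them Nolc1 stood at -0.46 (SE 0.11) and Ddx18 at -0.43 (SE 0.11), while Fbl, the rRNA methyltransferase, stood at -0.01 (SE 0.10) and Bop1 at -0.07 (SE 0.10). Of 11 genes of nucleotide, polyamine and one-carbon metabolism 9 were lower (median -0.34), including Shmt1 (-0.71, SE 0.19), Dnph1 (-0.59, SE 0.15), Ppat, the first enzyme of purine synthesis (-0.52, SE 0.13), and Srm, the spermidine synthase (-0.44, SE 0.14). Odc1, often used as a readout of Myc, stood at -0.22 (SE 0.28) with overlapping groups. Among the 6 translation and chaperone genes 5 were lower, with a median of -0.064. Their translation factors Eif4e (0.05, SE 0.12), Eif4a1 (-0.00076, SE 0.10) and Eif2s1 (-0.0031, SE 0.11) had overlapping groups, and the chaperones Hspd1 and Fkbp4 stood at -0.41 (SE 0.14) and -0.51 (SE 0.22). The 6 cell cycle and replication genes included 5 lower (median -0.36), and the 10 genes of other roles 8 (median -0.25). Without the cell cycle and replication genes, 42 of 48 were lower with a median of -0.21. Whether these values follow cell division was not tested. Trp63, described above, was also lower in every iKO library, and its part in these values was not tested. The genes against the direction of the list were led by Ccnd2 (0.51, SE 0.23) and Prdx3 (0.49, SE 0.15), and of these Prdx3 had groups that did not overlap.

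**Figure D5:**
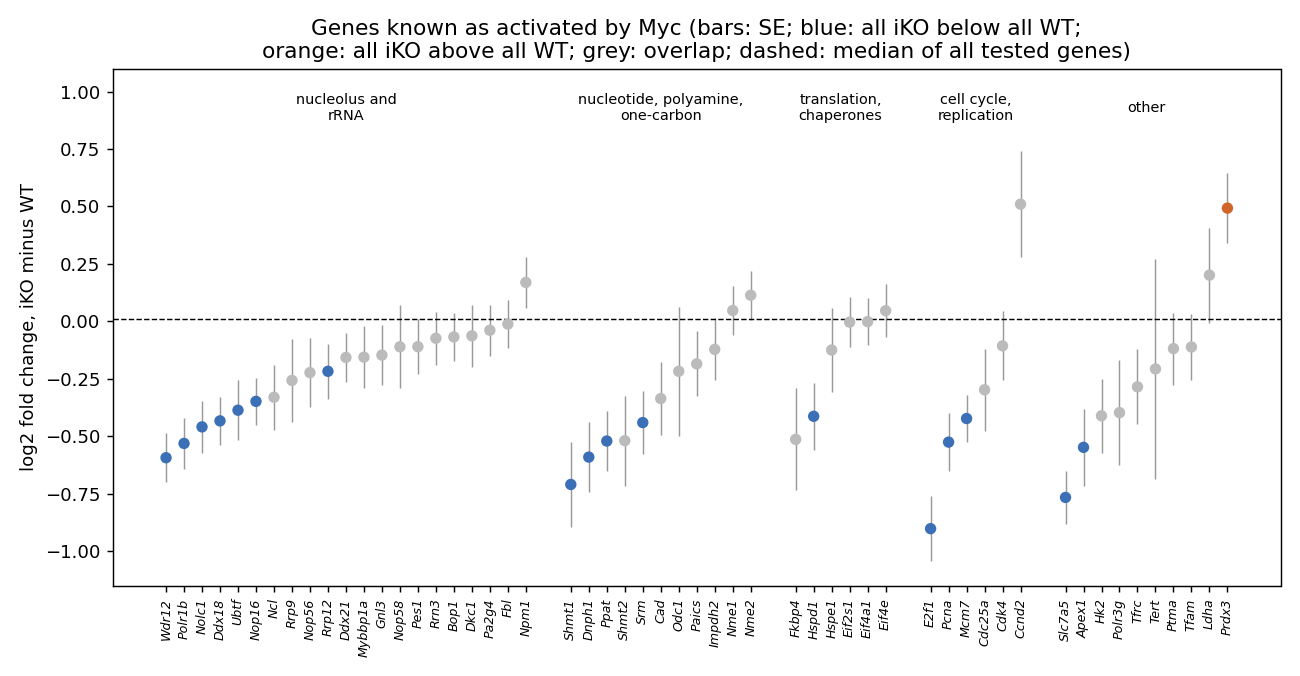
Log2 fold change, iKO minus WT (y axis), with SE for the 54 genes known as activated by Myc, grouped by role; blue points have every iKO library below every WT library, orange the reverse, grey overlap, and the dashed line is the median of all tested genes (0.01). Points below the line make up most of each group, with E2f1 at -0.90 the lowest and Ccnd2 at 0.51 the highest.

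The E-box CACGTG was present in the promoter window of 13 of the 47 activated targets that had one (27.7%, beside 11.7% of tested genes). Among the genes known as repressed through Myc the share was nearly the same, at 3 of 12 (25.0%). Every iKO library lay below every WT library for 17 of all 54 activated targets (31.5%) and for 11.3% of all tested genes. Of the 13 activated targets with the motif, 3 had this, namely Hspd1, Apex1 (-0.55, SE 0.17) and Dnph1. The groups of the other 10 overlapped, among them Cdk4, in which the motif occurred 4 times, and Ldha (0.20, SE 0.21).

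Genes known to be repressed through Myc and its partner Zbtb17 were mixed. Of 16 tested, 10 were higher and 6 lower (median 0.23), and edgeR called 0 of them. With no adjustment, 3 higher genes and 1 lower gene had p under 0.05 (25.0%, beside 15.0% of all tested genes), and DESeq2 also called 3 higher and 1 lower (25.0%, beside 5.89%). Cdkn1a, the cyclin-dependent kinase inhibitor p21, measured 234 to 263 CPM in WT and 343 to 464 CPM in iKO (0.72, SE 0.14; edgeR adjusted p = 0.0967). The stress genes Gadd45b (1.01, SE 0.21) and Gadd45a (-0.61, SE 0.17) went opposite ways, and Ndrg2 stood at 2.29 (SE 0.54) from 1.68 to 6.51 CPM in WT and 11.1 to 28.6 CPM in iKO. Cdkn2b, a classical gene of this kind, stood at 0.59 (SE 0.27) with overlapping groups, and Cdkn1b at -0.09 (SE 0.13).

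The relatives of the network that bind E-boxes through the same kind of domain included 9 tested genes. Of these 3 were higher, 6 were lower and 0 were called by edgeR. Tfap4, a factor known as a Myc target, was the 1 gene with an unadjusted p under 0.05 (11.1% of the list, beside 15.0% of all tested genes) and the 1 that DESeq2 called (11.1%, beside 5.89%). It measured 10.8 to 17.6 CPM in WT and 6.11 to 10.5 CPM in iKO (-0.97, SE 0.29; edgeR adjusted p = 0.194). Mycl1, which encodes L-Myc, measured 21.8, 17.8 and 16.0 CPM in WT 2, WT 3 and WT 4, and 50.4, 19.9 and 24.1 CPM in iKO 3, iKO 4 and iKO 33. Its difference of 0.76 (SE 0.35) was led by iKO 3 and was 0.25 without it. Mitf stood at -1.09 (SE 0.48) and Usf1 at -0.22 (SE 0.12), with adjusted p = 0.347 and 0.427 in edgeR. Mlxip, a Mondo partner of Mlx, stood at -0.07 (SE 0.11), and Mlxipl was too low to be tested, at a mean of 0.101 CPM in WT and 0.0703 CPM in iKO.

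Corepressors of the Mxd, Mnt and Mga proteins were 9 higher and 10 lower of 19, with a median of -0.01, and none passed in edgeR. At an unadjusted p under 0.05 there were 1 higher and 2 lower (15.8%, beside 15.0% of all tested genes), and DESeq2 called 1 (5.26%, beside 5.89%), so the list was at the background. E2f6, which sits with Mga in a Polycomb complex, was that gene, at 45.6 to 47.7 CPM in WT and 31.5 to 35.2 CPM in iKO (-0.50, SE 0.10; edgeR adjusted p = 0.116). Its complex partners L3mbtl2 (-0.04, SE 0.14) and Pcgf6 (-0.08, SE 0.13) had overlapping groups. Sin3b, a scaffold for Mxd repression, stood at 0.35 (SE 0.11), Sap18 at 0.28 (SE 0.14) and the chromatin adaptor Wdr5, which also binds Myc, at -0.27 (SE 0.11).

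Myc coactivators were 6 higher and 13 lower of 19 (median -0.04), and none passed in edgeR or DESeq2. At an unadjusted p under 0.05 there was 1 gene (5.26%, beside 15.0% of all tested genes). This was Ruvbl1, an ATPase of chromatin complexes, at 101 to 114 CPM in WT and 74.0 to 94.4 CPM in iKO (-0.35, SE 0.12). Ep400, a subunit of the Tip60 complex, stood at -0.22 (SE 0.13), and the PAF1 complex genes Ctr9 and Cdc73 at 0.23 (SE 0.11) and -0.19 (SE 0.14).

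Genes of Myc protein turnover were 9 higher and 15 lower of 24 (median -0.02), and none passed in edgeR. The 3 with an unadjusted p under 0.05 were all lower (12.5%, beside 15.0% of all tested genes), and DESeq2 called 2 (8.33%, beside 5.89%). Skp2, a ubiquitin ligase subunit that acts on Myc, measured 35.1 to 39.6 CPM in WT and 22.2 to 27.3 CPM in iKO (-0.60, SE 0.13; edgeR adjusted p = 0.118). Usp37, a deubiquitinase of Myc, stood at -0.59 (SE 0.15), Set, an inhibitor of the phosphatase PP2A, at -0.49 (SE 0.14), and the PP2A subunit Ppp2r5a at -0.34 (SE 0.15).

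Of 18 tested regulators of Myc transcription 9 were higher and 9 lower (median -0.03), and edgeR called 0. With no adjustment, 2 higher and 2 lower genes had p under 0.05 (22.2% of the list, beside 15.0% of all tested genes), and DESeq2 called 1 of each direction (11.1%, beside 5.89%). Foxo3 and Foxo1, forkhead factors that oppose Myc, stood at 0.48 (SE 0.11) and -0.85 (SE 0.21). Foxo3 measured 51.2 to 52.0 CPM in WT and 66.1 to 78.2 CPM in iKO, and Foxo1 45.4 to 66.3 and 23.2 to 35.0 CPM. Notch1, a receptor that raises Myc in several tissues, stood at -0.29 (SE 0.10), and Stat3 at 0.35 (SE 0.14).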

How the data were processed

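For each gene symbol, the deposited table has an unnormalised read count in each of 6 libraries. Per the submitters' processing notes, mm10 was the build, and TopHat2 and HTSeq are named beside DESeq and DESeq2. The annotation and strand setting were not given in the sources used here. HTSeq summary rows (27.4% to 35.5% of all counts) were left out. The authors' deposited DESeq2 table gives log2 fold changes, their SE and adjusted p-values. The iKO column numbered 33 matches no title and was used as an iKO replicate without a label number. The sample titled Gata6 iKO2 matches no column by number, and whether column 33 is that sample was not settled.

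Counts were fitted over all genes in edgeR 4.0.16 (R 4.3.3): filterByExpr with minimum count 10, TMM scaling, robust glmQLFit and glmQLFTest on group alone, two-sided, Benjamini-Hochberg adjustment. The SE is the absolute log2 fold change over the square root of F. Log2 CPM used a prior count of 2. DESeq2 1.42.0 and limma 3.58.1 were alternatives, and calls of DESeq2 are counted among the genes edgeR tested. The test was checked on simulated data. Gene positions and exon lengths come from GENCODE M21 (mm10). No 2 libraries of a group agreed within sampling noise (chi-square per degree of freedom at least 48.6). All 10 members were named, and from each list the 4 genes with the smallest p; other list genes were chosen after their values were seen. Members and lists were chosen with earlier results of these data known.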

Additional observations from a re-analysis of the deposited data

How the results depend on the processing

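The count of genes past the threshold, 43 in edgeR, was 76 without a count filter, 757 in DESeq2 over all its genes, 103 with a replicate block on the 4 libraries numbered 3 and 4, 9 in the 4 libraries other than the deepest ones (chosen after seeing the data, as was a fit with a term for those libraries), and 7 (without WT 2) to 31 (without WT 3) when 1 library was left out. The count of members called was 2 in DESeq2 and 0 in edgeR and limma under every other alternative run; Myc stood at -0.57 in DESeq2, where it passed. With the replicate block Myc stood at -0.53 and did not pass, and Mxd4 (-0.086), Mga (-0.16) and Mlx (-0.040) changed sign. Same-numbered libraries had deviations that correlated at 0.297 (number 3) and 0.661 (number 4). Pairs of unlike number ran from -0.572 (WT 4 with iKO 3) to 0.325 (WT 2 with iKO 3). With 2 such numbers and no label that ties them to a culture, same-numbered libraries were not treated as pairs. Leaving out 1 library gave -0.093 to 0.14 for Max, -0.036 to 0.32 for Mxd1, -0.053 to 0.52 for Mxd4, -0.037 to 0.77 for Mxi1, -0.086 to 0.21 for Mga and -0.058 to 0.24 for Mlx, so the direction of these 6 members rests on single libraries. Myc, Mycn, Mxd3 and Mnt kept their sign in all 17 alternatives. Reads of Mycn (31 to 240) and Mxd3 (95 to 303) limit the precision of both.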
